A study of Mus musculus with 12 samples.

Results

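Matrix proteases cut the proteins around cells, and a set of inhibitors binds and blocks them. The 9 genes described here, 9 of the 55487 genes in the count table, are 3 tissue inhibitors of metalloproteinases (Timp1, Timp2 and Timp3), 3 matrix metalloproteinases (Mmp2, Mmp7 and Mmp14) and 3 genes of the plasminogen activator system (Plau, Plaur and Plat). They were taken by symbol as a list set with earlier results of these data known, and all 9 had a row in the table. Their mRNA levels were measured by bulk RNA-seq of mouse kidney cortex in 4 groups of 3 libraries. Ctrl mice carried the floxed ALR gene (ALR flox/flox, labelled WT) without Cre and were labelled as sham operated. PT-KO mice carried the same floxed gene with Ggt1-Cre, which is active in proximal tubule cells, and were labelled as ALR knockdown with sham surgery. Ctrl+I/R and PT-KO+I/R mice had the same genotypes and were injured by 22 min of ischemia of both kidneys, with tissue taken after 24 h of reperfusion. The mice were on a C57BL/6 background and 6 to 8 weeks old at surgery. The labels give 1 kidney sample per library and do not say whether animals were littermates, so p-values measure the spread between these samples.

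Metalloproteinases are made as inactive proenzymes and act on collagens, other matrix proteins and cell surface proteins. Mmp14 is anchored in the membrane and, together with Timp2, activates the Mmp2 proenzyme, whereas Mmp7 is a small secreted enzyme of epithelia. Plau (urokinase) and Plat (tissue plasminogen activator) turn plasminogen into the protease plasmin, and Plaur is the surface receptor that holds urokinase at the cell. Timp3 differs from the other Timps in being bound to the matrix, and it also inhibits ADAM and ADAMTS proteases. In the kidney, urokinase is made in abundance by tubules, and Timp1 and Mmp7 are known for their rise in injured tubules.

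In the mouse genome (GRCm38, GENCODE M21 genes), Timp1 lies at chrX:20870166-20874735 on the plus strand, within the span of Syn1 but with 0 shared exon bases. Timp2 lies at chr11:118301069-118355740 on the minus strand and Timp3 at chr10:86300372-86349506 on the plus strand. Mmp2 (chr8:92827291-92853420), Mmp7 (chr9:7692090-7699585) and Mmp14 (chr14:54431612-54445364) are on plus strands, as are Plau (chr14:20836660-20843385), Plaur (chr7:24462484-24475968) and Plat (chr8:22757727-22782844). Timp3 shares 1733 exon bases with Syn3 on the opposite strand, and the strand setting of the counting is not given in the sources used here. Syn3 had between 16 and 1405 counts in a library, where Timp3 had 18459 or more. Mmp7 shares 123 exon bases with the antisense gene AV064505, which was at 0 in every library.

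The promoters of the 4 genes that rose after I/R in both genotypes are shown because these genes went from little or no mRNA, or a low level, to a clear signal. The stretches are the 120 bases before a RefSeq start of each gene (GRCm38.p6, plus strand), and capitals mark an AP-1 motif (TGACTCA or its complement TGAGTCA) or a TATA box (TATAAA).
Mmp7, chr9:7691970-7692089: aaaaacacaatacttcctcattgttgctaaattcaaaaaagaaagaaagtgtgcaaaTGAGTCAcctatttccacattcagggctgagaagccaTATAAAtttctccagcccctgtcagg
Plaur, chr7:24462363-24462482: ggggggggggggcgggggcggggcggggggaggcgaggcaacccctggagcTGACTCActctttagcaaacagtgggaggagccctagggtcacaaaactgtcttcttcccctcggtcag
Timp1, chrX:20870046-20870165: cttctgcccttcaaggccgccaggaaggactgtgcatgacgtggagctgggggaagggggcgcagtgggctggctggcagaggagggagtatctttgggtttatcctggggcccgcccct
Mmp14, chr14:54431478-54431597: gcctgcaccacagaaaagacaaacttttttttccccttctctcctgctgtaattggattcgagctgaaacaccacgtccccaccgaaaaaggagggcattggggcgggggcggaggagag

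Both strands of the RefSeq windows, which run from 250 bases before to 50 bases after a start, were searched for 4 motifs, and 6 of the 9 genes had a window. The AP-1 motif, in 5.20% of the 32851 mouse windows of this length, was present for Plaur (first base 69 bases before the start) and Mmp7 (63 before). Mmp7 also held a TATA box (13.6% of windows) at 26 and again at 123 bases before its start. Mmp7 has 2 RefSeq starts, and the window of the other (the 120 bases before it are chr9:7692221-7692340) held none of the 4 motifs. The Sp1 motif GGGCGG (35.7% of windows) was found for Plaur, Timp1, Timp2, Timp3 and Mmp14 but not for Mmp7. The STAT motif TTCCNGGAA (1.15% of windows) was found for none of the 6. These matches are a description of letters in these windows.

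The 12 libraries held 12165089 to 23123693 counts. Gfer, which encodes ALR, averaged 12.8 CPM (counts scaled to library size, the unit used below) in Ctrl and 14.0 in PT-KO without injury, then 17.6 for Ctrl+I/R and 22.0 for PT-KO+I/R, so it was not lower in the knockout libraries. These counts include exons outside the floxed stretch and cells without Ggt1-Cre, and their part in the Gfer levels was not tested. The paper reports lower ALR expression in the kidneys of its PT-KO mice than in controls. Xist, a transcript of female cells, had 22402 and 19755 counts in Ctrl libraries 1 and 2 and at most 11 in the other 10 libraries, so in every comparison with Ctrl the sexes are mixed unevenly. The label of kidney cortex was checked with proximal tubule markers: Slc34a1, Lrp2, Slc5a2, Slc22a6 and Aqp1 together summed to 11094 to 12225 CPM in Ctrl and 10797 to 12509 in PT-KO. After I/R they summed to 2944 to 7445 in Ctrl+I/R and, lower still, to between 2028 and 2592 in PT-KO+I/R. In bulk tissue, fewer cells of a type and less mRNA per cell cannot be told apart.

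Without I/R, Timp3 and Plau stood far above the rest. To compare genes, levels are given as FPKM, the CPM per kilobase of exon. In Ctrl, Timp3 was at 290.1 ± 32.96 FPKM (mean ± SD, n = 3 here and below) and Plau at 236 ± 68.6, with overlapping libraries. Plat (10.5 ± 2.42) and Timp2 (9.01 ± 1.15) followed and overlapped each other. Mmp14 (1.71 ± 0.148), Plaur (1.41 ± 0.275) and Mmp2 (1.20 ± 0.235) formed a lower group in which each neighbour overlapped the next, Timp1 averaged 0.126 FPKM and Mmp7 was at 0. The order in PT-KO was alike at its top, with Timp3 at 419 ± 25.1 FPKM clear of Plau at 171 ± 22.4, and Timp1 and Mmp7 again last.

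After I/R the order changed. Plau led in both genotypes, at 274 ± 94.2 FPKM in Ctrl+I/R, where it overlapped Timp3 (248.8 ± 11.9), and at 316 ± 82.4 in PT-KO+I/R, where it stood clear of Timp3 (160 ± 32.8). Timp1 rose in the order from just above Mmp7 to just above Plat in Ctrl+I/R (30.6 ± 17.7 FPKM). In PT-KO+I/R, Plaur (31.9 ± 9.11) and Plat (29.8 ± 3.11) came next with overlapping libraries, followed by Timp1 (24.1 ± 1.16) and Mmp7 (7.84 ± 1.25). Mmp2 was last of the 9 in both injured groups, at 0.700 ± 0.206 and 0.497 ± 0.101 FPKM.

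**Figure D1:**
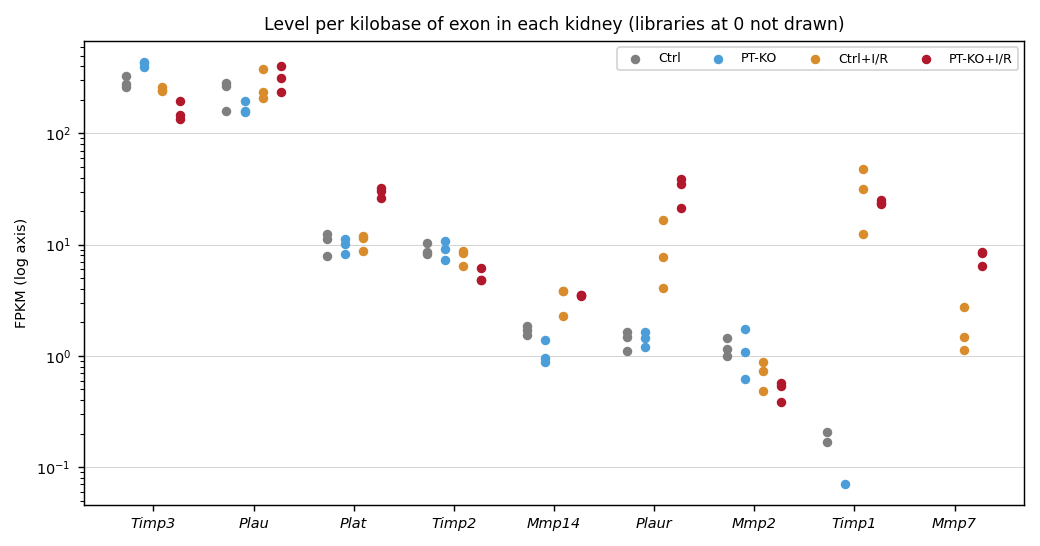
Level of each gene per kilobase of exon (FPKM, log axis) in each of the 12 libraries, with genes ordered by their mean in Ctrl and points coloured by group; libraries at 0 are not drawn. Timp3 and Plau sit above 100 FPKM in every library, and Mmp7 has points only in the 2 injured groups.

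Levels from here on are in CPM. I/R in control mice (Ctrl+I/R against Ctrl) asks how these genes moved with injury in controls, where 2 of 3 Ctrl libraries are female and no Ctrl+I/R library is, so injury and sex are mixed. Timp1, Mmp7, Mmp14 and Plaur rose, and none of the 9 fell by the test. That is 4 of 9 genes past an adjusted p of 0.05 in the quasi-likelihood test of edgeR, where 19.4% of all 15567 genes tested passed (11.4% higher, 7.97% lower). The 9 genes had a median log2 fold change of 0.22, against -0.01 over all genes tested; it is the same with Mmp7, below, at its bound.

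Among the inhibitors, Timp1 was nearly absent before injury, with 3, 3 and 0 counts in the Ctrl libraries. After I/R it reached 27.9, 42.5 and 11.1 CPM in Ctrl+I/R libraries 1, 2 and 4. The ratio of pooled counts was 254, with a counting interval of 117 to 694 at 95%, and edgeR's adjusted p was 0.00279. Timp2 was at 40.2, 33.3 and 31.8 CPM in Ctrl and 32.4, 24.9 and 34.5 in Ctrl+I/R, which overlap, and its log2 difference of -0.19 (SE 0.16) was not significant. Timp3 stood at 2146, 2279 and 2663 CPM in Ctrl and 2015, 1936 and 2128 in Ctrl+I/R. The Timp3 groups did not overlap, as in 43.7% of all genes, yet the log2 difference was only -0.22 (SE 0.18, adjusted p = 0.399).

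Of the metalloproteinases, Mmp7 had 0 counts in all 3 Ctrl libraries and 27, 56 and 25 counts after I/R, or 1.21, 2.92 and 1.58 CPM. Against a floor of 3 counts per library, it was at least 11.4-fold higher after I/R (adjusted p = 0.0110). Mmp14 went from 11.01, 10.3 and 9.26 CPM to 22.9, 22.6 and 13.5 CPM, without overlap. Its log2 fold change was 0.96 (SE 0.21, adjusted p = 0.0262), but 5 of the 6 fits that left out 1 library lost this call at values of 0.83 to 1.02, and only the fit without Ctrl+I/R library 4, the lowest of its group, kept it (1.16). Mmp2, the gelatinase that Mmp14 activates, had 4.93, 3.85 and 3.38 CPM in Ctrl and 2.99, 1.62 and 2.47 in Ctrl+I/R. Every injured library was below every Ctrl library for Mmp2, but its log2 difference of -0.77 (SE 0.30) missed the threshold (adjusted p = 0.103).

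In the plasminogen activator system, the receptor responded and the activators did not pass the test. Plaur went from 3.87, 4.28 and 2.88 CPM to 20.4, 43.8 and 10.8 CPM, a log2 fold change of 2.77 (SE 0.49, adjusted p = 0.0149). The Plaur call was lost without Ctrl library 1 (2.81, adjusted p = 0.0643) or Ctrl library 2 (2.90, adjusted p = 0.0605), and over the fits without 1 library the value ranged from 2.11 without Ctrl+I/R library 2 to 3.12 without Ctrl+I/R library 4. Plau had 671, 633 and 373 CPM before and 489, 904 and 554 after injury, with a log2 difference of 0.22 (95% interval -0.47 to 0.91). Plat had 78.0, 70.6 and 48.9 CPM in Ctrl and 71.2, 75.1 and 55.2 in Ctrl+I/R, a difference of 0.04 (95% interval -0.41 to 0.48). With sex as a covariate in a fit to all 12 libraries, the log2 fold change was 1.09 for Mmp14 and 3.12 for Plaur. Only Ctrl held both sexes, so in that fit the Ctrl level rests on library 3, its only male one.

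Ctrl+I/R library 4 was the lowest of its group for Timp1, Mmp14, Plaur and Plat. It also had the lowest sum of the injured tubule markers Havcr1, Lcn2 and Krt20 (552 CPM, against 1061 and 2617 in libraries 1 and 2) and the highest sum of proximal tubule markers (7445, against 5352 and 2944). Library 2 was the highest for Timp1, Plaur, Plau and Mmp7. From Ctrl to Ctrl+I/R, the summed CPM of fibroblast and stroma markers was 143–180 before and 346–425 after injury, that of macrophage markers 75.4–90.1 and 103–196, and that of neutrophil markers 1.06–1.88 and 8.16–35.9. Injured tubule markers summed to 3.05–7.28 in Ctrl. Thick ascending limb markers summed to 4226–5753 before and 1366–3600 after injury, and distal tubule markers to 1454–1851 and 295–624. Csf1r of the macrophage list and Pdgfra, Dcn and Lum of the stroma list did not pass as higher. The part of these marker differences in the levels of the 9 genes was not tested.

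**Figure D2:**
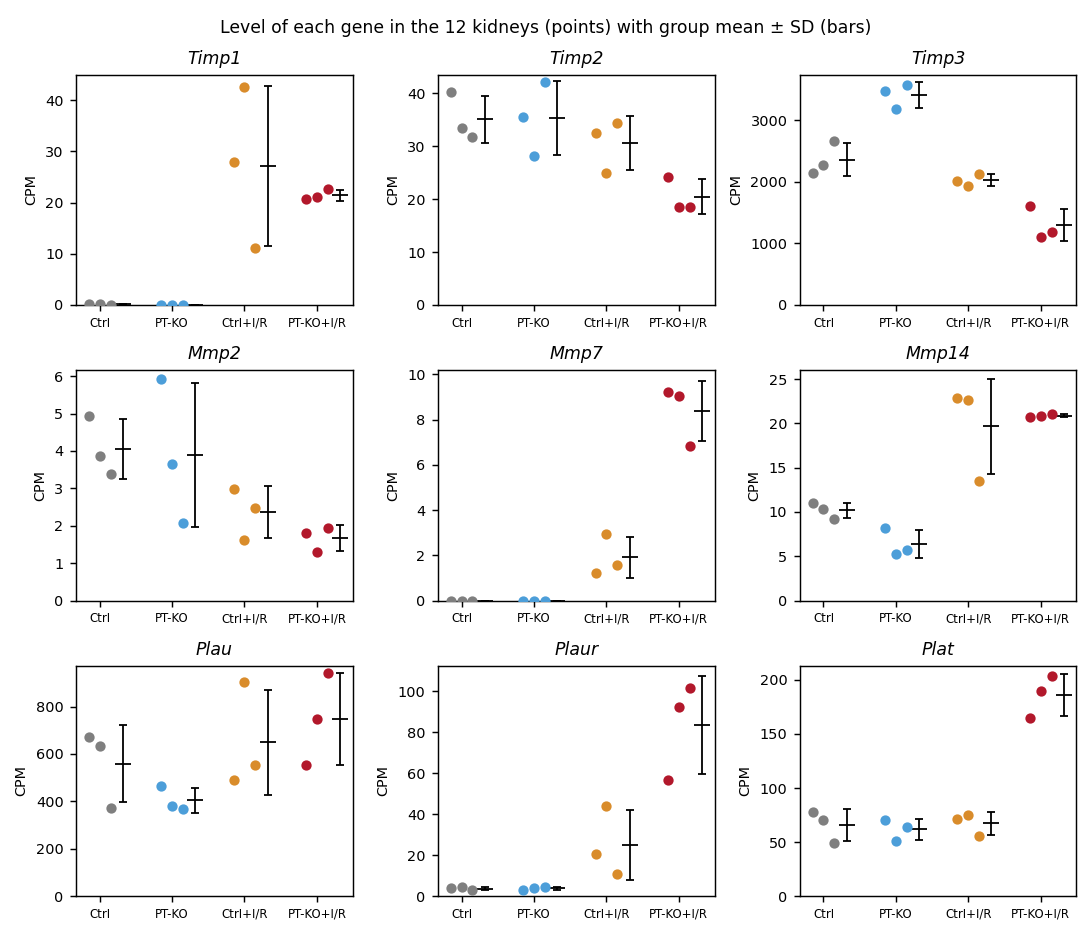
CPM of each of the 9 genes in the 12 libraries (points), with group mean ± SD of 3 libraries (bars) and each axis starting at 0. Mmp7 is at 0 in all 6 uninjured libraries, Plat is above 165 CPM only in PT-KO+I/R, and the Ctrl+I/R libraries of Timp1 and Plaur spread widely.

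I/R in the knockout (PT-KO+I/R against PT-KO, all male libraries) moved all 9 genes. Timp1, Mmp7, Mmp14, Plau, Plaur and Plat rose, and Timp2, Timp3 and Mmp2 fell. This comparison called 65.5% of 15155 genes (32.9% higher, 32.7% lower), so 9 of 9 is to be read against a high background. No gene of the 9 had overlapping groups, and that held for 70.8% of all genes. The median log2 fold change was 1.59 over the 9 genes and 0.01 over all genes. Marker sums differed as well, with 1.94–4.10 CPM in PT-KO and 4800–6312 after injury for injured tubule, 0.736–2.27 and 40.1–60.2 for neutrophils, 245–261 and 337–341 for endothelium, and 77.2–77.9 and 47.1–57.0 for macrophages, where Cd68 alone rose. Of the endothelial genes, Kdr did not pass (-0.02). Tubule segments had lower sums after injury, with 10797–12509 and 2028–2592 CPM for proximal tubule, 4394–5157 and 1908–2350 for thick ascending limb (Slc12a1 at 1334 and 40.6), 1176–1323 and 310–464 for distal tubule, and 98.01–190 and 37.2–83.7 for collecting duct. Their part in the changes of the 9 genes was not tested.

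Plaur went from 3.16, 3.77 and 4.29 CPM in PT-KO to 56.4, 92.1 and 101.6 CPM in PT-KO+I/R. That is 22.2-fold, or 4.47 on the log2 scale (SE 0.24, adjusted p = 2.3e-07). Plat went from 70.1, 51.4 and 63.7 CPM to 165, 189.7 and 203 CPM, a log2 fold change of 1.59 (SE 0.13, adjusted p = 3.7e-06). All 3 injured knockout libraries were therefore more than 2-fold above the highest PT-KO library for Plat. Plau rose from 465, 379 and 369 CPM to 554, 748 and 944 CPM, by 0.88 on the log2 scale (SE 0.18, adjusted p = 0.00163).

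Mmp7 went from 0 counts in all PT-KO libraries to 9.24, 9.04 and 6.83 CPM, which is at least 46.9-fold higher against the floor of 3 counts per library. Mmp14 rose from 8.20, 5.28 and 5.71 CPM to 20.7, 20.8 and 21.1 CPM, a log2 fold change of 1.70 (SE 0.17, adjusted p = 1.6e-05). Mmp2 fell from 5.93, 3.66 and 2.09 CPM to 1.80, 1.29 and 1.93 CPM, by 1.24 on the log2 scale (SE 0.38, adjusted p = 0.0164). That call for Mmp2 rests on PT-KO library 1 (-0.81 without it, adjusted p = 0.0837) and PT-KO+I/R library 3 (-1.05, adjusted p = 0.0707).

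Timp1 had 1, 0 and 0 counts in PT-KO and 20.6, 21.01 and 22.6 CPM in PT-KO+I/R. With a single count in the uninjured group, the ratio of pooled counts is 1086 with a wide counting interval of 194 to 42921. The other inhibitors went the other way. Timp3 fell from 3474, 3182 and 3576 CPM to 1605, 1106 and 1190 CPM, by 1.40 on the log2 scale (SE 0.14, adjusted p = 1.7e-05), and Timp2 from 35.6, 28.2 and 42.1 CPM to 24.2, 18.6 and 18.6 CPM, by 0.80 (SE 0.16, adjusted p = 0.00172).

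The makeup of the Timp mRNA pool can be read per kilobase. Timp1 made up 0 to 0.0716% of the summed Timp FPKM in Ctrl, 0 to 0.0163% in PT-KO, 4.41 to 16.4% in Ctrl+I/R and 10.3 to 14.4% for PT-KO+I/R. Timp3 held the largest share in every library, from 96.2 to 98.2% without I/R and from 81.4 to 92.5% after it. The summed Timp FPKM was 274 to 335 in Ctrl, 283 to 292 in Ctrl+I/R, 398 to 450 in PT-KO and 164 to 226 in PT-KO+I/R. The PT-KO+I/R range is thus the lowest of the 4 although Timp1 is there in quantity.

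The knockout without injury (PT-KO against Ctrl) called none of the 9 genes. Timp1 and Mmp7 were too low to be tested, and of the 7 tested 0 passed (2 had an unadjusted p under 0.05), as 0% of 15291 genes did by edgeR, where 2573 genes had an unadjusted p under 0.05 and DESeq2 called 444. Timp3 was higher in every PT-KO library (3182 to 3576 CPM) than in any Ctrl library (2146 to 2663), as groups did not overlap in 21% of all genes. Its log2 difference was 0.53 (SE 0.12, adjusted p = 0.183), with an adjusted p of 0.00119 by DESeq2. Mmp14 was lower in every PT-KO library (5.28 to 8.20 CPM) than in any Ctrl library (9.26 to 11.01), at -0.68 (SE 0.19, adjusted p = 0.207). For Plau the difference was -0.47 (SE 0.22, adjusted p = 0.317), and it turned to 0.12 with sex as a covariate. That fit sets the PT-KO libraries against Ctrl library 3 alone.

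Differences were near 0 for Timp2 (0.01, interval -0.36 to 0.37), Plaur (0.02, -0.51 to 0.56), Mmp2 (-0.06, -0.90 to 0.77) and Plat (-0.09, -0.52 to 0.33), and those of Timp2 and Plaur were negative with total counts, a scaling that moved the median of all genes from -0.01 to -0.14. Without Ctrl library 3, the only male Ctrl library, Timp3 (0.62, adjusted p = 0.00510), Mmp14 (-0.74, adjusted p = 0.0479) and Plau (-0.69, adjusted p = 0.00604) passed the test. In that fit every Ctrl library is female and every PT-KO library male, so sex and genotype cannot be told apart.

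The main question is how injured kidneys labelled as knockout differ from injured control kidneys (PT-KO+I/R minus Ctrl+I/R, all male), and Gfer itself was not lower in PT-KO+I/R. Mmp7, Plaur and Plat were higher in PT-KO+I/R, and Timp2 and Timp3 were lower. Thus 5 of 9 genes passed, against 46.9% of 15281 genes (22.5% higher, 24.4% lower), and their groups did not overlap, as in 58.7% of genes. The 9 genes had a median log2 difference of 0.08, and all genes one of -0.005. Scaling by total counts moves the median of all genes to -0.21, so differences here are relative to the other genes of the same library.

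Plat was at 165, 189.7 and 203 CPM in PT-KO+I/R against 71.2, 75.1 and 55.2 in Ctrl+I/R. It was 2.76-fold higher, a log2 difference of 1.46 (SE 0.14, edgeR adjusted p = 3.5e-04), and passed in each fit without 1 library (1.34 to 1.56). Plaur was at 56.4, 92.1 and 101.6 CPM against 20.4, 43.8 and 10.8, a difference of 1.74 (SE 0.45, adjusted p = 0.0151), or 3.34-fold. Its call was lost without Ctrl+I/R library 1 (1.60, adjusted p = 0.0593) or PT-KO+I/R library 4 (1.58, adjusted p = 0.0580). Over these fits the Plaur difference ranged from 1.38 without Ctrl+I/R library 4 to 2.39 without Ctrl+I/R library 2. Plau overlapped between the groups, with 554, 748 and 944 CPM against 489, 904 and 554, and its difference of 0.20 (interval -0.41 to 0.82, adjusted p = 0.555) fell to -0.02 with total counts.

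Mmp7 was at 106 to 203 counts per library in PT-KO+I/R and 25 to 56 in Ctrl+I/R. In CPM these are 9.24, 9.04 and 6.83 against 1.21, 2.92 and 1.58, a 4.39-fold difference (log2 2.13, SE 0.33, adjusted p = 0.00179) that passed in each fit without 1 library. Mmp14, which had risen in both genotypes, stood at 20.7 to 21.1 CPM in PT-KO+I/R and 13.5 to 22.9 in Ctrl+I/R. The Mmp14 difference of 0.08 (interval -0.38 to 0.53, adjusted p = 0.766) turned to -0.13 with total counts. Mmp2 was 1.29 to 1.93 CPM against 1.62 to 2.99, a difference of -0.52 (SE 0.34, adjusted p = 0.237).

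Timp3 was lower in every PT-KO+I/R library (1605, 1106 and 1190 CPM) than in any Ctrl+I/R library (2015, 1936 and 2128). The log2 difference was -0.65 (SE 0.17, adjusted p = 0.0163), and the call was lost without PT-KO+I/R library 3 (-0.53, adjusted p = 0.0712) or 4 (-0.58, adjusted p = 0.0754). Timp2 differed by -0.59 (SE 0.17, adjusted p = 0.0225), but 4 of 6 fits that left out 1 library lost the call, at -0.55 and -0.50 without Ctrl+I/R library 1 or 4 and -0.52 without PT-KO+I/R library 3 or 4. Timp1 did not pass, with 20.6 to 22.6 CPM inside the Ctrl+I/R range of 11.1 to 42.5 and a difference of -0.35 (interval -1.24 to 0.55, adjusted p = 0.488). That Timp1 value depended on single Ctrl+I/R libraries, being -0.72 (adjusted p = 0.0161) without library 4 and 0.11 without library 2.

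**Figure D3:**
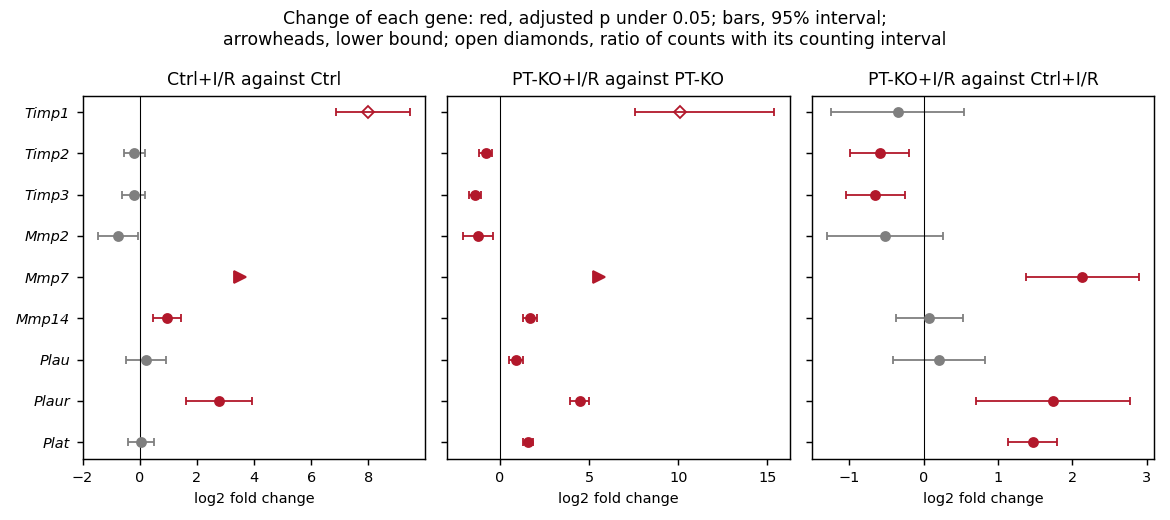
log2 fold change of each gene in 3 comparisons with its 95% interval, red where edgeR's adjusted p was under 0.05; arrowheads are the lower bounds for Mmp7, which was at 0 without I/R, and open diamonds the ratios of pooled Timp1 counts with their counting interval. The axes differ between panels, and only in the right panel does Timp1 straddle 0 while Plat, Plaur and Mmp7 lie above it.

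Markers of several cell types moved with this comparison. The injured tubule markers summed to 4800 to 6312 CPM in PT-KO+I/R and 552 to 2617 in Ctrl+I/R. Macrophage markers summed to 47.1 to 57.0 against 103 to 196, where Adgre1, Csf1r, C1qa and Lyz2 were lower by the test and Cd68 was higher (26.3 against 15.5 CPM, adjusted p = 0.0117). Fibroblast and stroma markers summed to 109 to 191 against 346 to 425, but only Col1a1 (11.5 against 125.7 CPM) and Col1a2 (27.6 against 157.6) of the 6 genes were lower by the test. Pdgfra, Pdgfrb, Dcn and Lum did not pass, with Pdgfra at 34.4 against 28.6 and Dcn at 20.8 against 20.2 CPM. Endothelial markers summed to 337 to 341 against 242 to 269, with Kdr, Emcn and Cdh5 higher by the test and Pecam1 not passing. Of other segments, Slc12a1 of the thick ascending limb (40.6 against 422 CPM), Slc12a3 of the distal tubule (238 against 365) and the podocyte gene Nphs1 (9.73 against 22.0) were lower by the test, while Umod, Calb1 and the collecting duct genes Aqp2 and Fxyd4 did not pass. The neutrophil list summed to 40.1 to 60.2 against 8.16 to 35.9, with S100a8 and S100a9 higher by the test, Csf3r at 5.37 against 6.53 CPM, and Ly6g and Mpo at no more than 3 counts in any library. Endothelium is a known source of Plat, and myeloid cells and injured epithelium of Plaur. The part of these marker shifts in the differences of the 9 genes was not tested.

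Whether I/R acted differently in the knockout was tested as the interaction over all 12 libraries, the I/R effect in PT-KO minus that in Ctrl. Timp3, Plat and Plaur passed, which is 3 of 9 genes where 30.6% of 16168 genes did (14.3% higher, 16.4% lower). For Timp3 the interaction was -1.17 (SE 0.21, edgeR adjusted p = 0.00202): its I/R effect was -0.22 in Ctrl and -1.40 in PT-KO. Timp3 differed by 0.53 in PT-KO against Ctrl (not called, sexes mixed) and by -0.65 between the injured groups, and both enter this value. For Plat the interaction was 1.56 (SE 0.25, adjusted p = 0.00100), from I/R effects of 0.04 in Ctrl and 1.59 in PT-KO. Both calls were kept in all 12 fits without 1 library. With sex as a covariate the interaction was -0.997 for Timp3 and 1.13 for Plat, but there the uninjured Ctrl level rests on library 3 alone.

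The Plaur interaction of 1.71 (SE 0.61, adjusted p = 0.0495) lay at the threshold. It was lost in 10 of 12 fits without 1 library (values from 1.35, and up to 2.37 in all 12) and with sex as a covariate (1.36, adjusted p = 0.258). Mmp14 (0.76, adjusted p = 0.0660), Timp2 (-0.59, adjusted p = 0.0841), Plau (0.67, adjusted p = 0.204) and Mmp2 (-0.45, adjusted p = 0.536) did not pass. The interaction has no usable value for Mmp7, at 0 in both uninjured groups, or for Timp1, which rests on 0 to 3 counts there. Since the interaction shares its libraries with the comparisons above, it is not separate evidence for them.

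For each gene, the genes whose log2 CPM ran most alike over the 12 libraries were sought among the 10991 genes averaging 100 counts or more. All pairs share the same libraries, and many the step between injured and uninjured kidneys, so the correlations are a description. Timp1 was closest to Spp1 (r = 0.995), which encodes osteopontin, then Tubb5 and Clu. Mmp7 was closest to the injury marker Lcn2 (r = 0.995), then Fgg and Lgals3. Plaur was closest to Mvp (r = 0.995), Anxa3 and Birc3, and Plat to Pdk4 (r = 0.987), Pde4b and Tbc1d8.

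Timp3 ran most like Pdk3 (r = 0.966), Nudt12 and Aspg, and Timp2 like the water channel gene Aqp4 (r = 0.9753) and Pik3r3. Mmp14 was closest to Gm42793 (r = 0.977), Mcam and Mboat1. Plau (Plxna1, r = 0.942) and Mmp2 (Gas1, r = 0.908) had the loosest best matches. Between the 9 genes themselves, Timp1 and Timp3 ran in opposite directions (r = -0.81), while Mmp7 ran with Plaur (r = 0.964) and Timp1 (r = 0.949) over the 12 libraries.

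The wider protease network was followed with 5 lists of related genes. Their counts are to be read against the shares of all genes called, 19.4% for I/R in Ctrl, 65.5% for I/R in PT-KO and 46.9% between the injured groups. Of the plasminogen system partners, 4 of 8 tested rose after I/R in Ctrl and 0 fell. Anxa2, a plasminogen receptor subunit, went from 47.9 to 201 CPM on average (log2 2.07, SE 0.42, adjusted p = 0.0209), and its partner S100a10 from 45.5 to 182 CPM. In PT-KO, 5 rose and 2 fell after I/R, with S100a10 at 52.0 and 481 CPM and Serpinf2, the main plasmin inhibitor, down from 333 to 98.02 CPM. Between the injured groups, 3 were higher in the knockout and 1 lower, with a list median of 0.30. S100a10 was higher by 1.40 (SE 0.27, adjusted p = 0.00445), at 428 to 526 CPM against 118 to 269. Serpine2, a serine protease inhibitor, was higher by 0.82 (SE 0.11, adjusted p = 0.00107), and Serpinf2 was lower, at 98.02 against 148.9 CPM.

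Of the other metalloproteinases, 3 rose and 1 fell among 11 tested after I/R in Ctrl, where Mmp3 (stromelysin) went from 0.0891 to 3.14 CPM, Mmp19 from 0.525 to 4.36 and Mmp13 (a collagenase) from 3.31 down to 1.11. In PT-KO, 5 rose and 3 fell among 12, a share near the 65.5% of all genes. Between the injured groups 2 of 12 were higher in the knockout and 3 lower, near the 46.9% of all genes, with a median of -0.15. Mmp8, the neutrophil collagenase, averaged 4.09 CPM against 0.923 (log2 2.13, SE 0.56, adjusted p = 0.0158). Mmp12, the macrophage elastase, averaged 0.261 CPM against 1.98 and Mmp13 0.220 against 1.11. In PT-KO+I/R these rest on 0 to 8 counts per library for Mmp12 and 1 to 10 for Mmp13. Of the markers given above, Adgre1, Csf1r, C1qa and Lyz2 were lower like Mmp12 while Cd68 was higher, and S100a8 and S100a9 were higher like Mmp8 while Csf3r did not pass, and their part was not tested.

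Of the ADAM and ADAMTS proteases, 6 of 15 rose after I/R in Ctrl and 0 fell, where 19.4% of all genes were called. In PT-KO 6 rose and 3 fell, where 65.5% were. Adamts4, an aggrecanase, averaged 0.495 CPM in Ctrl, 12.03 in Ctrl+I/R and 38.6 for PT-KO+I/R, the last 2 differing by 1.67 (SE 0.47, adjusted p = 0.0203). In the injured knockout 1 of 15 was higher and 4 were lower than in injured controls, with Adamts16 down to 1.84 from 4.88 CPM and Adam12 down to 7.22 from 17.3 CPM. Of the cathepsins and cystatins, 6 of 11 rose and 1 fell after I/R in Ctrl (19.4% of all genes called), and 7 of 12 rose and 2 fell in PT-KO (65.5%). Between the injured groups 4 of 12 were higher in the knockout and 2 lower (46.9% of all genes called), with the lysosomal protease gene Ctsl at 2490 against 984 CPM, the inhibitor gene Cstb at 307 against 119 CPM, and Ctss, typical of macrophages, at 14.9 against 34.8 CPM.

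The list of other protease inhibitors also holds Bsg (basigin), which induces metalloproteinases and is not an inhibitor. It showed 0 of 8 higher and 1 lower (Reck, an inhibitor of metalloproteinases in the membrane, from 9.51 to 6.33 CPM) after I/R in Ctrl. In PT-KO, 2 of 9 rose, Spint2 and Spint1, and 4 fell (Reck, A2m, Tfpi2 and Bsg). Between the injured groups none was higher and 3 of 9 were lower in PT-KO+I/R. Tfpi2 averaged 9.29 CPM against 25.4 (log2 -1.46, SE 0.22, adjusted p = 0.00163), and A2m, a broad protease inhibitor, 0.246 against 2.52 CPM. Without injury, PT-KO against Ctrl called 0 genes in each of the 5 lists. The interaction, which called 30.6% of all genes, called 3 higher and 0 lower of 8 plasminogen partners, among them S100a10 (1.21, SE 0.32, adjusted p = 0.0135). It called 0 higher and 3 lower of 13 other metalloproteinases (Mmp12 at -3.55), 1 higher and 2 lower of 15 ADAM and ADAMTS genes (Adamts15 at -2.13), 3 higher and 1 lower of 12 cathepsins and cystatins (Cstb at 1.45 and Ctsl at 1.33), and 0 higher and 1 lower of 9 other inhibitors (A2m at -4.33). All these values include the Ctrl libraries, 2 of 3 of them female. Adamts15 ran from 7.46 to 25.1 CPM in Ctrl and from 32.3 to 34.5 in PT-KO, all male.

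**Figure D4:**
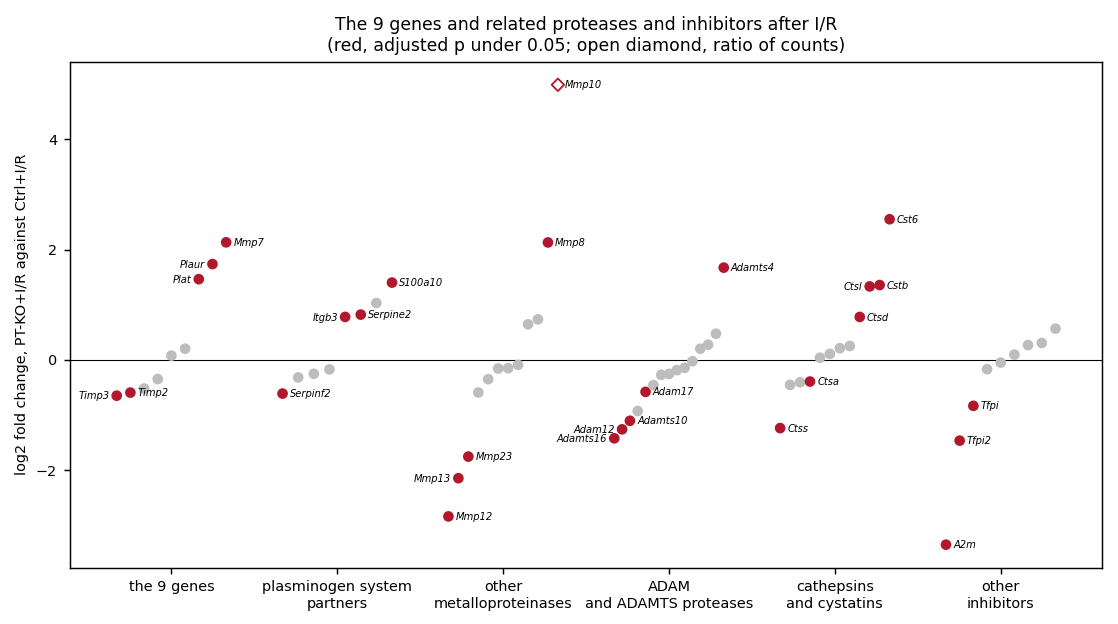
log2 difference of PT-KO+I/R from Ctrl+I/R for the 9 genes and the 5 related lists, one point per tested gene, red and named where edgeR's adjusted p was under 0.05; the open diamond is the ratio of counts for Mmp10, which had at most 1 count in a Ctrl+I/R library. Points above 0 are higher in PT-KO+I/R, as for Mmp7, Plaur and Plat of the 9 genes and S100a10 of the plasminogen partners.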

How the data were processed

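The authors deposited 1 table of raw read counts per gene for 12 libraries, neither normalized nor filtered. The submitters' processing notes name HISAT2 2.0.4 and mm10, and the count program and strand setting are not given in the sources used here. Of 55487 identifiers, 55227 matched a GENCODE M21 symbol. The control sample titles are numbered 1, 2 and 4 and the columns 1, 2 and 3, so the third Ctrl column was placed by group alone.

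After the filterByExpr filter and TMM scaling, edgeR 4.0.16 under R 4.3.3 gave quasi-likelihood F tests for the 6 libraries being compared or, for the interaction, for all 12. Calls needed an adjusted p under 0.05 (Benjamini-Hochberg, over all tested genes). CPM used TMM-scaled library sizes, and FPKM divided CPM by exon length. Counting intervals (exact, 95%) and floors (3 counts per library) cover counting error only. The fits were tested on simulated data. The 9 genes, the related lists and the markers were chosen with earlier results of these data known. All 9 genes are named, and from each related list, the 2 called genes with the largest rise and the 2 with the largest fall per comparison may be, given a mean of at least 10 counts. Alternatives were DESeq2 1.42.0, total counts, other low-count filters, all 12 libraries, sex as a covariate, a replicate block and leaving out each library. Exact permutation of 3 against 3 libraries cannot go below p = 0.1 and was not used. Some genes of the lists and of the likeness search are not reported here.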

Additional observations from a re-analysis of the deposited data

Results flagged for a closer look

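The I/R effect differed between PT-KO and Ctrl by the interaction test of edgeR for 3 of the 9 genes. Over all genes, 30.6% of 16168 passed that test. In Ctrl 2 of 3 libraries are female, and all other groups are male. The difference of effects on the log2 scale was -1.17 for Timp3, 1.56 for Plat and 1.71 for Plaur, and the last lost its call in 10 of 12 fits without 1 library (adjusted p between 0.00165 and 0.258 over its alternatives).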

How the results depend on the processing

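Outside the fits without 1 library, 197 values of the 9 genes kept direction and side of the threshold, 5 gained a call, 7 lost one and 12 changed sign. The cause of each change was not tested. Genes called among the 9, when 1 library was left out, ranged from 2 to 4 in Ctrl+I/R against Ctrl (2 without Ctrl library 1 or 2), 8 to 9 in PT-KO+I/R against PT-KO, 0 to 3 in PT-KO against Ctrl (3 without Ctrl library 3), 2 to 5 between the injured groups (3 without Ctrl+I/R library 1 or PT-KO+I/R library 3, 2 without PT-KO+I/R library 4) and 2 to 6 in the interaction (6 without Ctrl+I/R library 2). In PT-KO against Ctrl, DESeq2 called 1, no low-count filter 1 and the replicate block 2.

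Same-numbered libraries did not deviate together (12 pairs, median r -0.02, range -0.19 to 0.15), so the numbers were not used for pairing. A library without a same-numbered partner adds nothing to the difference in a block fit of 2 groups. Comparisons with Ctrl then rest on pairs 1 and 2, whose Ctrl libraries are female and partners male, so sex cannot be told apart. Between the injured groups and in PT-KO+I/R against PT-KO the pairs are 2 and 4. The replicate block gave 2 genes between the injured groups in place of 5, with Timp2 at -0.47, Timp3 at -0.55 and Plaur at 1.78 no longer passing, and ended the call of Mmp2 (-0.57, adjusted p = 0.261) in PT-KO+I/R against PT-KO. Under the block the sign turned for Plat (-0.012) in Ctrl+I/R against Ctrl, for Timp2 (-0.21), Mmp2 (0.10) and Plaur (-0.24) in PT-KO against Ctrl, and for Mmp2 (0.031) in the interaction. Total counts turned Timp2 (-0.12) and Plaur (-0.11) in PT-KO against Ctrl (median of all genes from -0.01 to -0.14), and Mmp14 (-0.13) and Plau (-0.016) between the injured groups. Sex as a covariate turned Mmp2 (0.20), Plau (0.12) and Plat (0.33) in PT-KO against Ctrl, where the Ctrl level then rests on library 3 alone.

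Without 1 library, signs turned within -0.076 to 0.38 for Plau and -0.13 to 0.18 for Plat in Ctrl+I/R against Ctrl. In PT-KO against Ctrl they did within -0.14 to 0.15 for Timp2, -0.49 to 0.23 for Mmp2, -0.12 to 0.15 for Plaur and -0.27 to 0.043 for Plat, and between the injured groups within -0.72 to 0.11 for Timp1 and -0.13 to 0.20 for Mmp14. None of these values but Timp1's lowest passed the test.

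Over all genes, Ctrl+I/R against Ctrl called 3019, 4938 with all 12 libraries and 379 to 4061 without 1. PT-KO against Ctrl called 0, 444 with DESeq2, 388 without a low-count filter, 1378 with the block, 1 with total counts and 0 to 1930 without 1 library. Between the injured groups the block called 1683 in place of 7169, and the interaction called 3215 with the block and 3233 with sex, in place of 4953. Total counts moved the split of higher and lower calls from 1778 and 1241 to 2346 and 766 in Ctrl+I/R against Ctrl, from 3444 and 3725 to 1978 and 5080 between the injured groups, and from 2305 and 2648 to 1591 and 2997 in the interaction. Mmp2 (21 to 98 counts per library), Mmp7 (at most 203) and, without I/R, Timp1 (at most 3) rest on few counts. Among related genes, so do Mmp12 (at most 8), Mmp13 (at most 10) and A2m (at most 6) in PT-KO+I/R.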
